A study of Sus scrofa with 48 samples.

Results

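Endocannabinoids are lipid messengers made on demand from membrane phospholipids and broken down within the cell. *FAAH*, fatty acid amide hydrolase, breaks down anandamide and related fatty acid amides. *NAAA* is a lysosomal hydrolase of N-acylethanolamines that prefers palmitoylethanolamide, and *ABHD6* is a membrane hydrolase of monoacylglycerols. *NAPEPLD* releases N-acylethanolamines from their phospholipid precursors, *DAGLA* and *DAGLB* form 2-arachidonoylglycerol, and *CNR1* is the cannabinoid receptor best known in brain, which adipocytes also carry. In adipose tissue this system is known for its links to fat storage and energy balance.

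These 7 genes were followed in porcine subcutaneous adipose tissue (SCAT) on single-colour microarrays. A gene was measured where a probe named for it was well above background, as called by the scanner software, on at least 9 of the 12 arrays of a group. Of the 7 genes, 4 had a probe and 3 had a kept probe, giving 5 member probes among 44356 kept probes and 3 member genes among 11278 gene symbols with a kept probe. *FAAH* was chosen by its measured difference between the pig lines in these same arrays, so every line difference of a member below is a description and carries no test. Diet, the interaction of diet with line, and the relations across pigs were not used in that choice.

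The 48 pigs were Large White barrows of 132 days of age, 12 in each of 4 groups. Low RFI (residual feed intake, labelled RFIneg) pigs came from the line selected for eating less than predicted from their growth, and high RFI (RFIpl) pigs from the line selected in the opposite direction. Pigs of each line had free access to a high-fat high-fiber (HF) diet, in which plant oils and wheat straw took the place of part of the cereal starch, or to a low-fat, low-fiber (LF) diet rich in starch, and both diets were formulated to the same energy and protein content. All pigs were castrated males, and each line is a selected population, so that a line difference covers all that sets those populations apart.

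The arrays lay on 6 slides scanned on 2 dates, and every slide held 2 pigs of each group. Between 62.2% and 81.9% of probes were well above background per array, and no spot was saturated. Levels are log2 signals relative to the median of the kept probes on the same array, and levels of different probes are not comparable with each other. Of the adipocyte markers, 8 of 8 were measured. Their summed linear level, in multiples of the array median, had a group median of 3046 in LF, low RFI and 2823 in LF, high RFI pigs, and of 2860 and 2685 in the HF pigs of those lines.

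*FAAH* was read by 3 probes of 60 bases. Probes O6223 and A_72_P078051 overlap: the last 38 bases of the first are the first 38 bases of the second, so that they share a target and are not independent readings. The first 30 bases of this shared stretch are given because the pair of probes that met the call rule for line both contain them; the capitals mark the stretch common to both.

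O6223 and A_72_P078051: ATACTTTCTGGCAGTCGTTGTTAGGGCAGT

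The third probe, A_72_P681668, starts at base 598 of the *FAAH* transcript on which A_72_P078051 starts at base 2030, so it reads a separate, upstream stretch. It is shown because it reads another stretch of *FAAH* than the overlapping pair; no base is marked.

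A_72_P681668: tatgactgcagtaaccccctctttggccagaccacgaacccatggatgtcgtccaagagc

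All 3 *FAAH* probes were well above background on 48 of 48 arrays. By probe A_72_P078051, *FAAH* ranged from 0.36 to 1.96 with a median of 1.62 in LF, low RFI pigs. In HF, low RFI pigs it ranged from 0.14 to 2.51 with a median of 1.28. In LF, high RFI pigs it ranged from -0.41 to 1.60 with a median of 0.37. This was the lowest of the 4 groups. In HF, high RFI pigs it ranged from -0.27 to 1.92 with a median of 0.53. The groups overlapped throughout, and the pigs of highest level were HF, low RFI pigs.

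The group means ± SD of this probe (n = 12 each) were in the order 1.48 ± 0.45 (LF, low RFI), 1.36 ± 0.82 (HF, low RFI), 0.72 ± 0.64 (HF, high RFI) and 0.42 ± 0.64 (LF, high RFI). No step between neighbours in this order was larger than the pooled SD of the groups on either side; the widest step, between both HF groups, was 0.63 against a pooled SD of 0.73. Thus both low RFI groups stood above both high RFI groups, and the spread among pigs of a group was as wide as the steps.

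Probe O6223 gave the same order, with means of 1.32 ± 0.45 (LF, low RFI), 1.24 ± 0.72 (HF, low RFI), 0.58 ± 0.63 (HF, high RFI) and 0.44 ± 0.59 (LF, high RFI). Its medians were 1.43, 1.18, 0.41 and 0.42 in that order of groups. Its lowest and highest pigs were at 0.22 and 1.88 (LF, low RFI), 0.14 and 2.27 (HF, low RFI), -0.35 and 1.81 (HF, high RFI), and -0.39 and 1.41 (LF, high RFI).

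The upstream probe A_72_P681668 was dim, with all pigs below the array median. Its means were -2.31 ± 0.37 (LF, low RFI), -2.51 ± 0.38 (HF, low RFI), -2.65 ± 0.28 (LF, high RFI) and -2.74 ± 0.41 (HF, high RFI). Its pigs ranged from -2.93 to -1.85 around a median of -2.28 (LF, low RFI), from -3.17 to -1.87 around -2.45 (HF, low RFI), from -3.18 to -2.10 around -2.67 (LF, high RFI) and from -3.39 to -2.08 around -2.65 (HF, high RFI). Low RFI groups again held the higher means, and here too no step between neighbouring groups exceeded the pooled SD.

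**Figure D1:**
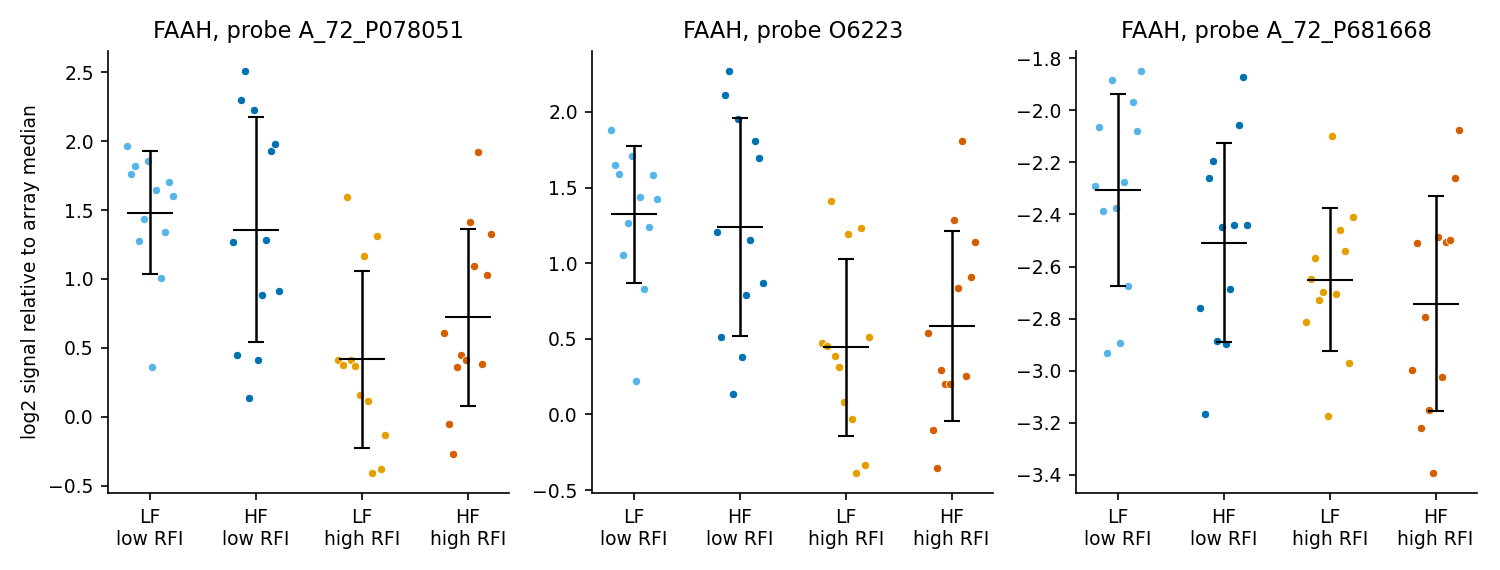
*FAAH* level of each pig by 3 probes, as log2 signal relative to the array median, with points for pigs and bars for the group mean and SD (n = 12 per group); each panel has its own vertical scale. Both low RFI groups have higher means than both high RFI groups by every probe, and the groups overlap.

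As a description of the contrast by which *FAAH* was chosen, the mean of low RFI pigs exceeded that of high RFI pigs by 0.85 (SE 0.18) by probe A_72_P078051, with means of 1.42 and 0.57 (n = 24 each), a 1.80-fold difference. By O6223 the difference was 0.77 (SE 0.17), or 1.70-fold. By A_72_P681668 it was 0.29 (SE 0.10), or 1.22-fold, which did not reach the call rule of the study (p under 0.01, fold over 1.1 and adjusted p under 0.08), except in a fit with array weights. This rule was met by 2 of the 5 member probes, both of *FAAH* and overlapping, and by 1.37% of all kept probes; as the rule for *FAAH* used this contrast, nothing is read from the count.

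In individual pigs, 20 of 24 low RFI pigs lay above the high RFI mean by A_72_P078051, 20 by O6223 and 18 by A_72_P681668. Above the highest high RFI pig lay 6, 4 and 6 low RFI pigs, respectively. Within the HF diet the low minus high RFI difference by A_72_P078051 was 0.63 (SE 0.26), and within the LF diet it was 1.06 (SE 0.26). By O6223 these differences were 0.66 (SE 0.24) and 0.88 (SE 0.24). By the upstream probe A_72_P681668 they were smaller, at 0.23 (SE 0.15; 95% interval -0.06 to 0.53) and 0.34 (SE 0.15).

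The line difference was not of like size on all slides. By A_72_P078051 it was 1.02, 1.45 and 1.06 on the slides of the first scan date, and -0.12, 0.59 and 1.09 on those of the second. The low RFI mean was higher on 5 of 6 slides by each *FAAH* probe, and the exception was the same slide for all 3. Within the first date the difference was 1.18 by A_72_P078051, 1.12 by O6223 and 0.42 by A_72_P681668. Within the second date it was 0.52, 0.42 and 0.16, and none of the probes met the call rule there. Of all 44356 kept probes, 1 met the rule for line on that date and 425 on the first. Nothing is therefore read from the missing calls. Whether the line difference differed between dates was not tested.

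**Figure D2:**
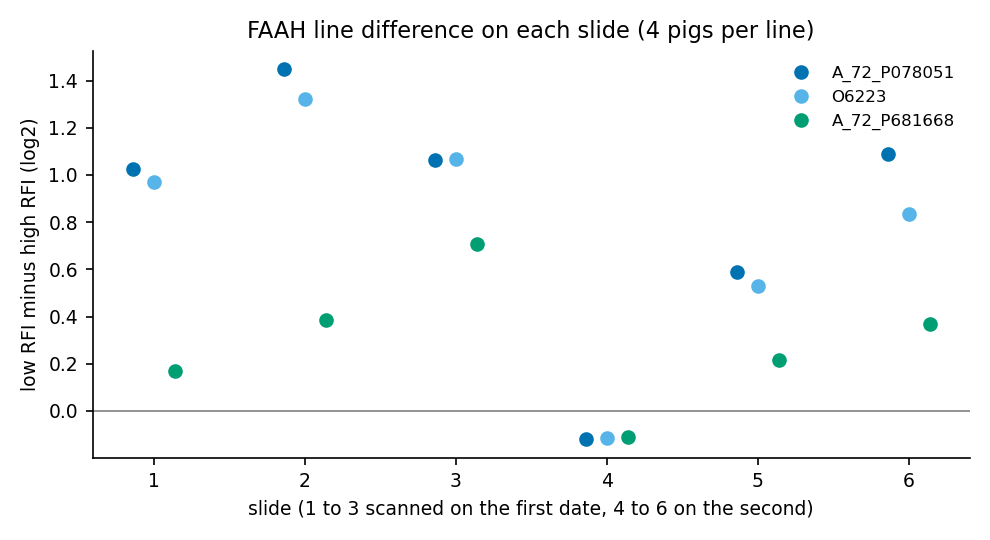
Low RFI mean minus high RFI mean of *FAAH* (log2) on each slide, with 4 pigs of each line per slide and a colour per probe. Slide 4 is below 0 by all 3 probes (-0.12, -0.11 and -0.11), and the other slides are above 0.

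The agreement of the 3 probes was examined on deviations from the group means over the 48 pigs, as a description, since the probes share arrays and RNA. The overlapping probes had r = 0.98, with 0.944 to 0.998 within groups. The upstream probe had r = 0.58 with A_72_P078051 and 0.62 with O6223. Within groups its r with A_72_P078051 was 0.82 (HF, low RFI), 0.57 (LF, low RFI), 0.51 (HF, high RFI) and 0.38 (LF, high RFI). Pigs with more signal at the downstream stretch therefore tended to have more at the upstream stretch, and less closely so in high RFI pigs of the LF diet; the difference between groups was not tested.

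**Figure D3:**
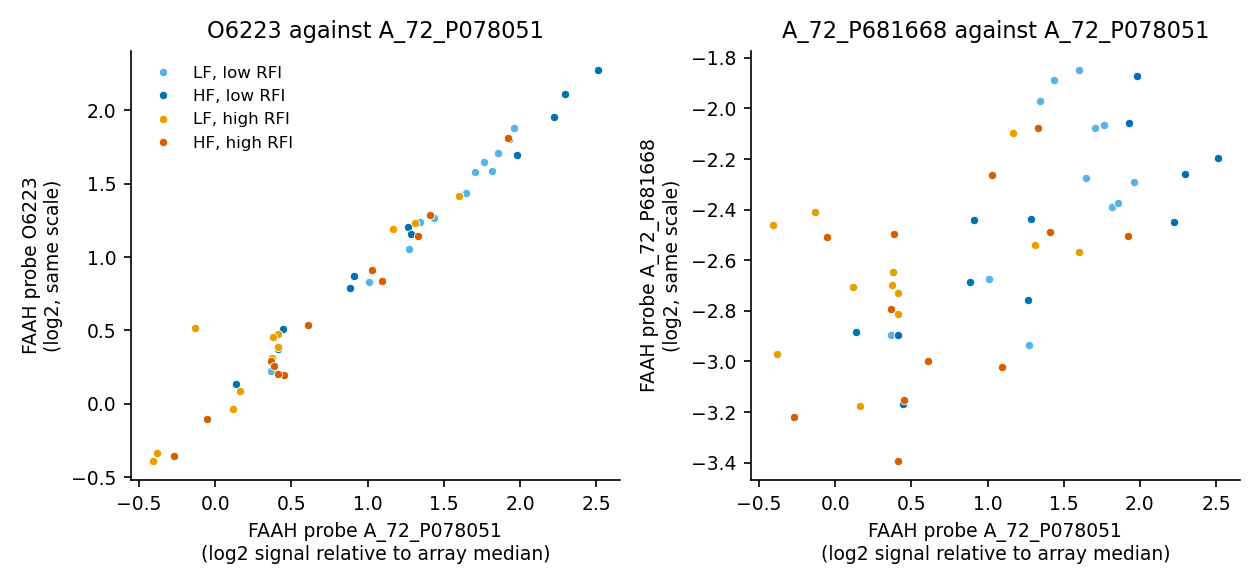
*FAAH* probe O6223 (left) and A_72_P681668 (right) against A_72_P078051 in each pig, as log2 signal relative to the array median, coloured by group. The overlapping probes lie along a line (r = 0.98 on deviations from group means) except for an LF, high RFI pig above it, and the upstream probe scatters more widely (r = 0.58).

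*FAAH* was not called for diet by any probe. By A_72_P078051 the HF mean was 1.04 and the LF mean 0.95, a difference of 0.09 (95% interval -0.27 to 0.45; limma adjusted p = 0.80). By O6223 it was 0.03 (-0.31 to 0.37; limma adjusted p = 0.94), and by A_72_P681668 it was -0.15 (-0.36 to 0.06; limma adjusted p = 0.39). Within the scan dates the differences by A_72_P078051 were -0.25 on the first and 0.44 on the second, and by O6223 -0.28 and 0.33, so that the sign turned. By A_72_P681668 they were -0.27 and -0.03. Spots of A_72_P681668 bore a background outlier flag on 37 of 48 arrays, and over the remaining 11 arrays its diet difference was -0.44 (SE 0.21) and its line difference 0.30 (SE 0.21).

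The response of *FAAH* to diet did not pass the test for a difference between lines. By A_72_P078051 the HF minus LF difference was -0.12 (SE 0.26) in the low RFI line and 0.31 (SE 0.26) in the other line, and the interaction was -0.43 (95% interval -1.16 to 0.30; limma adjusted p = 1.0). This interaction was 0.10 within the first scan date and -0.96 within the second (limma adjusted p = 1.0 in both), and it turned to 0.24 with the position of the array on its slide in the fit.

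Of the other hydrolases, *ABHD6* had similar levels in all groups. Its probe, O7671, was at 1.49 ± 0.21 in HF, high RFI pigs (1.22 to 1.88, median 1.45) and at 1.47 ± 0.26 in HF, low RFI pigs (1.03 to 1.94, median 1.48). It was at 1.43 ± 0.23 in LF, high RFI pigs (1.16 to 2.01, median 1.38) and at 1.35 ± 0.19 in LF, low RFI pigs (1.03 to 1.65, median 1.36). All groups overlapped, and no step between neighbouring means exceeded the pooled SD.

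*ABHD6* was 0.10 higher under HF (95% interval -0.03 to 0.23; limma adjusted p = 0.36), which did not pass the test. The HF mean was higher on 5 of 6 slides. Low minus high RFI was -0.05 (SE 0.06), and the interaction was 0.06 (SE 0.13; limma adjusted p = 1.0).

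*NAAA*, read by probe A_72_P380063, likewise showed no order of groups beyond the spread. Its level was 1.75 ± 0.25 in HF, high RFI pigs (1.37 to 2.24, median 1.75) and 1.75 ± 0.47 in LF, low RFI pigs (1.11 to 2.53, median 1.63). It was 1.68 ± 0.38 in HF, low RFI pigs (0.79 to 2.16, median 1.83) and 1.65 ± 0.32 in LF, high RFI pigs (1.24 to 2.09, median 1.72). The diet difference was 0.02 (95% interval -0.19 to 0.22; limma adjusted p = 0.95), the line difference 0.01 (SE 0.10) and the interaction -0.17 (SE 0.21; limma adjusted p = 1.0).

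**Figure D4:**
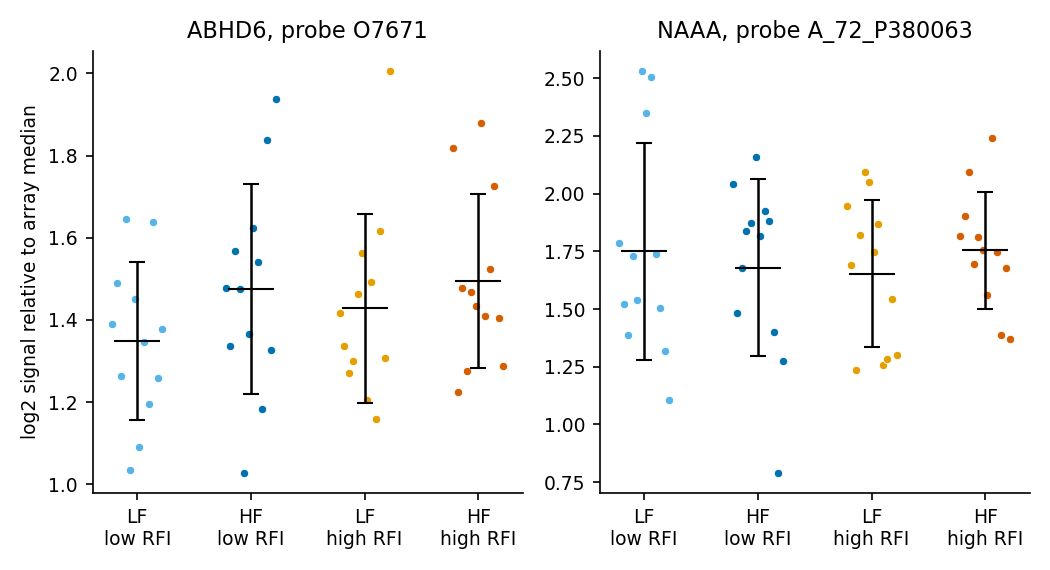
*ABHD6* and *NAAA* level of each pig, as log2 signal relative to the array median, with points for pigs and bars for the group mean and SD (n = 12 per group); each panel has its own vertical scale. The 4 group means lie between 1.35 and 1.49 for *ABHD6* and between 1.65 and 1.75 for *NAAA*.

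In all, 0 of the 5 member probes were called for diet, against 13.1% of all kept probes, and 0 had an unadjusted p under 0.05, against 25.5% of all kept probes. None was called for the interaction, for which no kept probe of the array was called (0.0%), and 0 had an unadjusted p under 0.05, against 1.04% of all kept probes. The methods' two-way analysis of variance also called none in either contrast.

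The receptor *CNR1* was not well above background in SCAT on most arrays. Its probe A_72_P414278 passed on 2 of 48 arrays, both of LF, high RFI pigs, and was not kept; no level or difference is given for it. The synthesis genes *NAPEPLD*, *DAGLA* and *DAGLB* had no probe named for them and were not analysed here.

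Other genes of the pathway were taken from a list of 28, of which 13 had a kept probe. For diet, 1 was called higher under HF and 1 lower, against 3.33% and 9.29% of all genes (12.6% in either direction; 376 genes higher and 1048 lower, but 636 higher and 577 lower under 75th percentile scaling), and the median difference of the 13 genes was -0.01, beside -0.04 for all genes. *MGLL*, the main hydrolase of 2-arachidonoylglycerol and also the last step of triglyceride lipolysis, was under-expressed by the HF diet by a log2 difference of -0.39 (SE 0.11; limma adjusted p = 0.020; n = 24 per diet). Its median under HF against LF was 3.22 against 3.71 in the low RFI line and 2.83 against 3.27 in the other line. All groups overlapped. On each scan date alone *MGLL* was not called, with differences of -0.41 (limma adjusted p = 0.089) and -0.36 (limma adjusted p = 0.30). Of all 11278 genes, 672 and 264 were called for diet on these dates, against 1424 over both.

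*PPARA* is a nuclear receptor that binds fatty acids and their ethanolamides. Its brightest probe, A_72_P775972, was 0.96 higher under HF (SE 0.22; limma adjusted p = 0.0034), but it lies on a cloned liver mRNA and carries the name *PPARA* from the array files alone, so that whether it reads *PPARA* is uncertain. The median of A_72_P775972 under HF against LF was 0.34 against -1.26 in the low RFI line and -0.32 against -0.92 in the other line. The probe placed on the *PPARA* reference transcript, A_72_P441798, differed in the opposite direction, by -0.32, and the remaining probe, O221, by 0.21. The probes disagreed, *PPARA* was not called when they were averaged, and no direction is given for the gene. *PTGS2*, which oxygenates endocannabinoids, was 0.47 higher under HF (SE 0.18; limma adjusted p = 0.084) and was not called.

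Of the same 13 genes, 1 met the call rule for line, *PLCB1*, a phospholipase C that can supply diacylglycerol for endocannabinoid synthesis, against 1.17% of all genes. As the contrast was the one by which *FAAH* was picked, this is a description. *PLCB1* was 0.29 (SE 0.06) higher in low RFI pigs, with means of 1.72 and 1.44, and its dimmer probe differed by 0.53 in the same direction. The difference was 0.31 on the first scan date and 0.26 on the second. The rule was met on neither date alone, and the probe is not in the table the authors deposited. Of all 11278 genes, 114 met the rule for line on the first date and 0 on the second. Nothing is therefore read from the missing call of *PLCB1* on the second date. *MGLL* was 0.38 (SE 0.11) higher in low RFI pigs without meeting the rule in this fit. It met the rule with slide, scan date or replicate block and with array weights. In those fits 207 to 493 of all genes met it, against 132 here. The median line difference was 0.12 over the 13 genes and 0.02 over all genes.

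**Figure D5:**
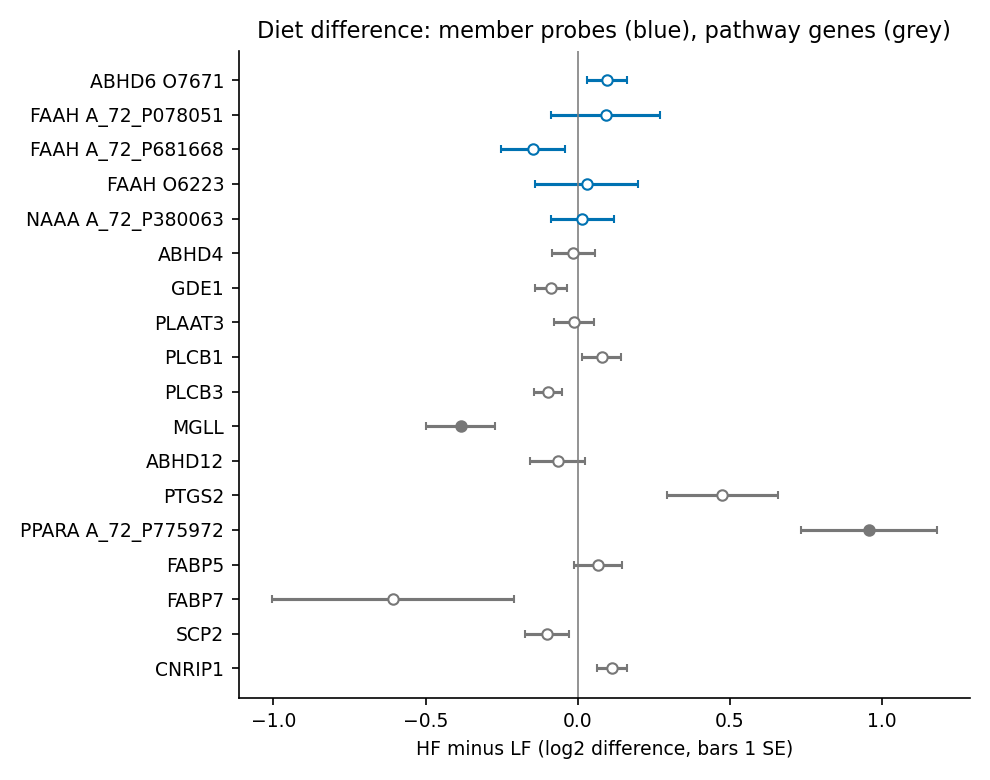
HF minus LF difference (log2, bars 1 SE; n = 24 pigs per diet) of the 5 member probes in blue and of 13 other pathway genes in grey, each by its brightest probe, with filled points for those called. The member probes lie between -0.15 and 0.10, and *MGLL* (-0.39) and the *PPARA* probe A_72_P775972 (0.96), whose target is uncertain, are the filled points.

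Across the 48 pigs, on deviations from the group means, *FAAH* did not vary with the other measured hydrolases beyond the test. With *ABHD6* it had r = 0.13 (permutation p = 0.40, adjusted over 2 relations 0.40) and rho = 0.12 (permutation p = 0.42, adjusted 0.42). With *NAAA* it had r = -0.16 (permutation p = 0.27, adjusted 0.40) and rho = -0.14 (permutation p = 0.33, adjusted 0.42). Without the 2 pigs farthest from the median *FAAH* level, r was 0.11 and -0.23. Within the scan dates r was 0.29 and 0.02 for *ABHD6*, and -0.10 and -0.22 for *NAAA*.

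Each member probe was also set against the mean log2 level of 8 lists of cell type markers, 40 relations in all, chosen after the data were seen. Pearson's r passed at an adjusted p under 0.05 in 4 and Spearman's rho in 2. The permutations exchanged pigs of a group across slides and scan dates, so that these p-values do not allow for differences between slides. *ABHD6* rose across pigs with fibroblast and preadipocyte markers such as *PDGFRA* and *COL1A1* (r = 0.62, permutation p = 2e-05, adjusted 0.00080; rho = 0.54, adjusted 0.0068), with r of 0.63 and 0.66 within the dates and 0.57 without the 2 pigs farthest from the median. It fell with endothelial markers (r = -0.54, permutation p = 0.00017, adjusted 0.0034), for which rho was -0.40 (adjusted 0.069), r was -0.44 and -0.58 within the dates and -0.45 without those 2 pigs.

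*NAAA* rose with macrophage markers such as *CD68* and *CD163* (r = 0.44, permutation p = 0.0041, adjusted 0.041), for which rho was 0.42 (adjusted 0.069), and r was 0.68 and 0.31 within the dates and 0.34 without the farthest 2 pigs. *NAAA* itself differed between slides, with low and high RFI means of 2.15 and 1.85 on slide 4 and 1.12 and 1.47 on slide 6. The part of slides in this relation was not tested. The upstream *FAAH* probe rose with the 2 measured red blood cell markers (r = 0.47, permutation p = 0.0013, adjusted 0.018; rho = 0.51, adjusted 0.0098), with r of 0.23 and 0.52 within the dates and 0.47 without the farthest 2 pigs. The brightest *FAAH* probe had r = 0.14 with the same markers (adjusted permutation p = 0.48), and 0.33 with adipocyte markers (adjusted permutation p = 0.15). In whole tissue, fewer cells of a type and less RNA per cell cannot be told apart.

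The marker lists are given beside the line difference of *FAAH*, since their part in it was not tested. Of 50 marker genes 47 were measured, and 0 met the call rule for line, as did 1.17% of all genes, so that the count says little about them. Of 10 macrophage markers, 8 had a lower mean in low RFI pigs, with a median line difference of -0.19 beside 0.02 over all genes. The most negative were *C1QB* (-0.33), *VSIG4* (-0.32) and *MRC1* (-0.28), while *CD14* (0.07) and *CD68* (0.06) had a higher mean in low RFI pigs. The summed level of the macrophage list had a median of 51.7 (LF) and 54.0 (HF) in the low RFI line and of 60.9 and 62.3 in the other line, within ranges of 28.0 to 136 and 39.1 to 122. Of 6 fibroblast and preadipocyte markers, 5 had a lower mean in low RFI pigs (median difference -0.08). Of 8 adipocyte markers, 5 had a higher mean in low RFI pigs (median difference 0.09), with a summed level of 2486 to 3269 in low RFI pigs against 2300 to 3295 in the high RFI line. For diet, *LEP* was among the called markers with a lower level under HF, and *PDGFRA* among those with a higher level.

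Among 11246 other genes, those whose deviations from the group means followed the brightest *FAAH* probe most closely over the 48 arrays were *EDF1* (r = 0.61), *DNAH8* (0.57), *PRKACA* (0.55), *BORCS7* (0.55) and *MCCC1* (0.54). The lowest were *HYOU1* (r = -0.60) and *LYST* (r = -0.59). Within each scan date *EDF1* had r of 0.60 and 0.64, and *HYOU1* -0.60 and -0.62. These values are a description, as all genes share arrays, RNA and scaling.

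The nearest genes to *FAAH* on the pig assembly Sscrofa11.1 that had a kept probe, 5 on each side, had low minus high RFI differences between -0.13 (*STIL*) and 0.15 (*MAST2*). The nearest measured gene, *NSUN4*, differed by 0.09, with means ± SD of -0.32 ± 0.17 and -0.41 ± 0.18 (n = 24 each). *FAAH* was chosen by this difference and its neighbours were not, so that nothing is read from the comparison.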

How the data were processed

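Total RNA of SCAT was labelled with Cy3 and hybridized to a custom porcine array with 8 arrays of 60306 spots per slide. The deposited intensity values are Agilent Feature Extraction output per array, of which the processed signal, background-subtracted by the scanner software, was used. The authors also deposited a log2 table of 38987 probes, which equals the centred log2 median signal, made in R 2.10.0, and was used as an alternative. Here spots flagged as non-uniform or population outliers were left out, probes well above background on 9 of 12 arrays of a group were kept, and each array was centred on its median. limma 3.58.1 in R 4.3.3 fitted diet, line and their interaction to 48 arrays, with Benjamini-Hochberg adjustment over all kept probes, or over 11278 genes by their brightest probe. The script was tested on simulated data. The number of arrays limits the precision.

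Probes were named from the array files and, through gene numbers and accessions, from the RefSeq gene table of Sscrofa11.1. *ABHD6*, *NAAA*, *CNR1* and the *FAAH* probe O6223 are named by the array files alone, and the other *FAAH* probes by the reference transcript. No genome coordinates are given, because the array names no build. Permutation tests were two-sided, within groups, with 100000 resamples, and did not keep pigs within their slide or scan date. The members, the lists and the tests were chosen with earlier results of these data known. Named were every member probe, pathway genes called for diet or line, and the 5 genes most and 2 least correlated with *FAAH*; others were added as examples. Alternatives covered scaling, background, filters, flags, test, call rule, blocks (slide, scan date, position, replicate number), each date alone and array weights.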

Additional observations from a re-analysis of the deposited data

How the results depend on the processing

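Of 17 alternatives, 5 leave the differences themselves as they are (the test, the call rule and the slide, scan date and replicate blocks). Under the other 12, 167 of 180 differences of member probes kept their sign, and no *FAAH* line difference turned. The 180 include the *FAAH* line differences. As *FAAH* was chosen by that contrast in these same arrays, nothing is read from their kept sign. By A_72_P078051 the line difference ranged from 0.52 (the second scan date) to 1.18 (the first), and by A_72_P681668 from 0.15 (normexp background) to 0.42. Member probes past the call rule for line fell from 2 to 0 on the second scan date alone, which holds 24 arrays, and rose to 3 with array weights, where A_72_P681668 met it. Pathway genes called for diet numbered 2, but 4 under 75th percentile scaling, 3 under quantile normalization, with background outlier flags left out, with slide or replicate block and with array weights, 1 on the first date, 0 on the second (*MGLL* on neither) and 1 with the probes of a gene averaged. Those past the rule for line numbered 1 (*PLCB1*), but 2 with slide, scan date or replicate block or with array weights, where *MGLL* was added. They numbered 0 in the deposited table and on either date alone. Over all probes, calls for line moved from 606 to between 1 (second date) and 1796 (array weights), and calls for diet from 5790 to between 1230 (second date) and 7811 (array weights). The cause was not tested.

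With the replicate number as a block, 0 member probes were called for diet and 2 were past the rule for line, against 16.1% and 2.57% of all probes in that fit. Same-numbered pigs lie on the same slide and in the same row of 4 positions on it (72 of 72 pairs), so that number and place cannot be told apart. They had deviations correlated at 0.16 on average (-0.19 to 0.45), with 48 of 72 pairs over 0.1, and 17 of 48 arrays were closest to their own number. Pigs of different groups and other numbers had a mean correlation of -0.01. All pairs of different groups on the same slide, which include the same-numbered pairs, had 0.12.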
